A study of Mus musculus with 5 samples.

Results

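The visual cycle is the chain of reactions that turns the all-trans retinoid released by bleached opsin back into the 11-cis form that captures light. Its 9 genes followed here are Stra6, Lrat, Rpe65, Rdh5, Rdh10, Rdh11, Rlbp1, Rgr and Rrh, taken from 18193 genes with a probe set of their own on the array. Every probe set annotated to exactly 1 of these symbols was used, 12 in all, and where a gene had several, the one with the highest mean stood for it. The genes were chosen by their role in the cycle with the measured differences between diabetic and control retinas already known, and Rgr, Rpe65, Lrat and Rdh5 were among the 7 genes of lowest difference among those tested. Their differences between these groups are therefore a description and carry no test of their own.

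Total RNA came from mouse retinas in 5 pools, each measured on 1 whole-genome expression array. For diabetic replicates 1 and 2, 4 retinas were pooled from 2 mice that had been diabetic for 5 weeks after streptozotocin, which destroys pancreatic beta cells. Diabetic replicate 3 was a pool of 6 retinas from 3 mice, diabetic for 3 to 4 weeks, and its label calls the diabetes experimentally induced without naming an agent. For control replicates 1 and 2, 4 retinas were pooled from 2 mice of the same age that were normoglycaemic and untreated, so the controls had not received a vehicle. Strain, sex and age in weeks are not given in the labels. A pool averages its mice, and the spread between pools is the only replicate error available.

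In the eye the cycle runs between photoreceptors and the retinal pigment epithelium, the pigmented cell layer behind them, and a further supply of chromophore for cones has been described in Müller glia, the radial glia of the retina. In the pigment epithelium, retinol is taken up, esterified, isomerised to 11-cis retinol, oxidised to 11-cis retinal and returned to the outer segments. For the comparison, Stra6, Lrat, Rpe65, Rdh5, Rgr and Rrh were counted as pigment epithelium genes. Rlbp1 and Rdh10, which both layers are known to use, were counted with Müller glia, and Rdh11, a photoreceptor enzyme also found in the pigment epithelium, was kept apart. Rgr is also known from Müller glia, and the alternative of counting it there is given with the other alternatives.

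The 5 arrays resembled each other, with Pearson correlations across genes between 0.977 and 0.986, although genes are not independent replicates. Signals were taken as log2(signal + 120.6), and 10916 genes in the upper 60% by mean level, at or above 9.70 on this scale, entered the test. Of the 9 visual cycle genes 8 lay above that limit, the closest of them Lrat with a mean of 10.09, while Stra6 lay below it at 9.35 and was not tested. Lrat passed only through its controls, since its mean was 9.50 in diabetic pools and 10.99 in control pools. In limma, 0 of the 10916 genes passed a Benjamini-Hochberg adjusted p of 0.05, and 370, or 3.39%, had an unadjusted p under 0.05. All 8 tested visual cycle genes had an adjusted p of 0.999.

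The pigment epithelium genes of the cycle were lower in diabetic than in control pools, with a median log2 difference of -1.36 over the 6 genes, against 0.01 over all tested genes. In 5 of the 6, every diabetic pool lay below both controls, and 4 of these 5 were above the filter, Lrat among them only through its control mean. Groups apart in that direction occurred in 8.15% of all tested genes. Over all 9 genes, 8 had a lower mean in diabetic pools, as did 48.1% of tested genes, and 0 lay above both controls in every diabetic pool, as 9.99% of tested genes did. In 4 of the 6 genes the difference was 1 log2 unit or more downward, a size found in 0.101% of tested genes. Since the genes were chosen knowing this contrast and the size of their differences, nothing is read from any of these shares. In bulk retina, fewer cells of a type in the pool, whether in the eye or only in the tissue taken, and less RNA per cell cannot be told apart.

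Rpe65 encodes the isomerase that makes 11-cis retinol from retinyl ester. Its signal was 2324, 2645 and 1500.4 in diabetic replicates 1 to 3, against 4495 and 10029.9 in control replicates 1 and 2. All 3 diabetic pools lay below both controls, and the controls differed from each other 2.23-fold. On the log2 scale the diabetic pools averaged 11.12 ± 0.40 (SD, n = 3) and the controls 12.74 ± 0.80 (SD, n = 2), a difference of -1.62 (SE 0.33). The gap between the highest diabetic pool and the lower control was 0.74.

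Lrat encodes lecithin retinol acyltransferase, which makes the retinyl esters that Rpe65 works on. Its signal was 395, 854 and 628 in diabetic replicates 1 to 3, against 1072 and 3326 in control replicates 1 and 2. The groups did not overlap, but diabetic replicate 2 came within 0.29 log2 units of control replicate 1. The log2 difference was -1.49 (SE 0.43), and the controls differed from each other by 1.53 log2 units, which is as wide as the difference between the groups.

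Rdh5 encodes the 11-cis retinol dehydrogenase that completes the cycle in the pigment epithelium. Its signal was 2668, 2549.9 and 2044 in diabetic replicates 1 to 3, against 3931 and 8452 in control replicates 1 and 2. The diabetic pools lay close together, with a range of 0.37 log2 units, and all below both controls. The log2 difference was -1.22 (SE 0.27), with the controls 1.08 apart. A further probe set is annotated to both Rdh5 and its neighbour Bloc1s1 and was therefore left out of the gene level. It read 12.25, 12.45 and 12.24 in diabetic pools against 12.42 and 12.40 in controls, with overlapping groups.

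Rgr encodes an opsin-like protein of intracellular membranes that handles all-trans retinal. Its signal was 1486, 2943 and 1989 in diabetic replicates 1 to 3, against 5308 and 13841 in control replicates 1 and 2. The mean diabetic signal was 0.223 of the control mean, and every diabetic pool lay at least 0.83 log2 units below the lower control. The log2 difference was -1.997 (SE 0.38), with a spread of 1.36 between the controls and of 0.93 among the diabetic pools. Of the 10916 tested genes, 2 had a lower difference than Rgr.

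Stra6 encodes the membrane receptor through which cells take up retinol from its carrier in blood. Its signal was 366, 432 and 441 in diabetic replicates 1 to 3, against 692 and 851 in control replicates 1 and 2. The groups did not overlap, and the controls differed by only 0.26 log2 units, less than the 0.53 between the groups' nearest pools. The log2 difference was -0.74, with no test because the gene lay below the filter. Among the 7277 genes below the filter, 10.4% had every diabetic pool below both controls.

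Rrh encodes peropsin, an opsin-like protein of pigment epithelium microvilli. Its signal was 5726, 5283 and 5067 in diabetic replicates 1 to 3, against 5696 and 5571 in control replicates 1 and 2. The groups overlapped, with diabetic replicate 1 the highest of the 5 arrays. The log2 difference was -0.07 (SE 0.10, 95% interval -0.30 to 0.15), so the lower end of its interval lay above the estimates of the other 5 pigment epithelium genes. This interval comes from 5 pools and a shared model of the spread, and the difference between Rrh and the other genes was not tested.

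**Figure D1:**
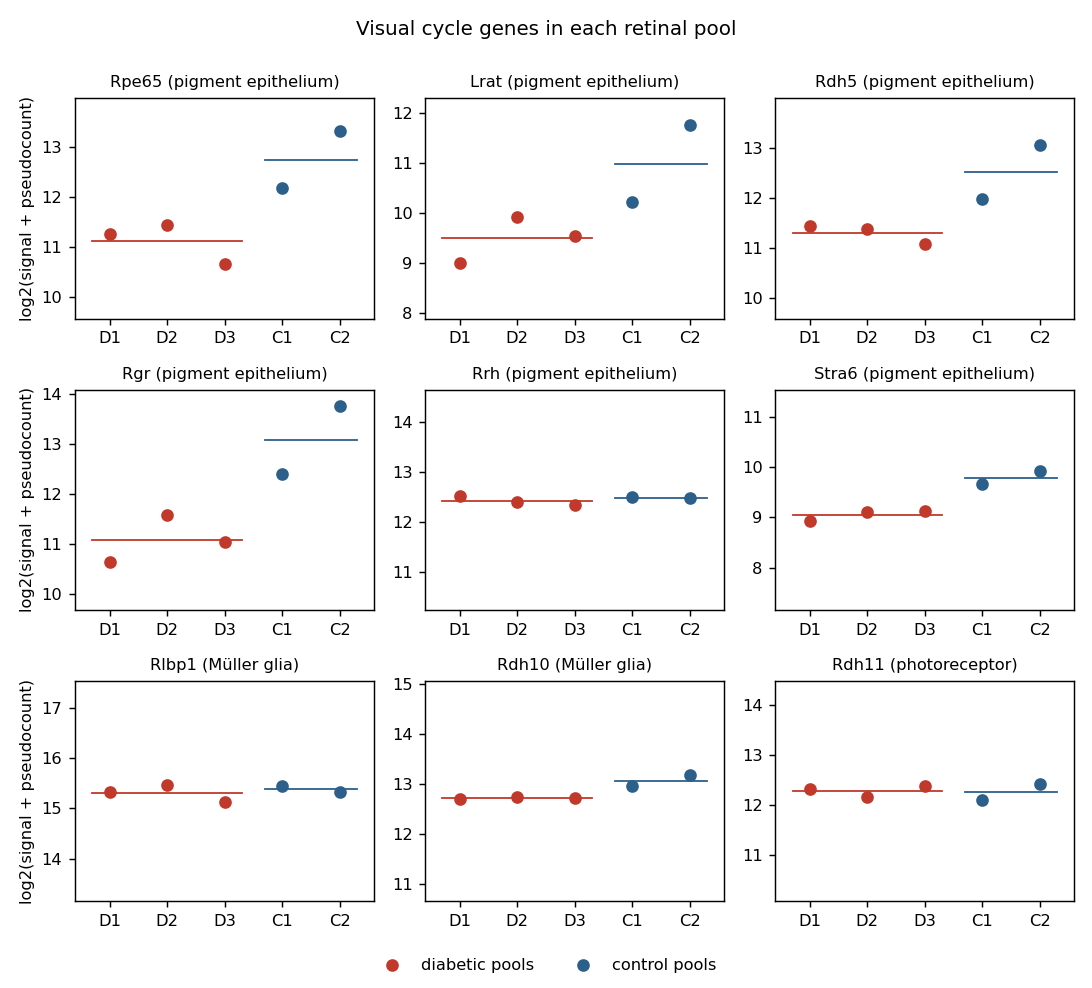
Values of the 9 visual cycle genes as log2(signal + 120.6) in each pool, diabetic replicates 1 to 3 (D1 to D3, red) and control replicates 1 and 2 (C1 and C2, blue), with group means as lines and the same height of axis in every panel. Rpe65, Lrat, Rdh5, Rgr and Stra6 were lower in all 3 diabetic pools, and control replicate 2 was the highest array for these 5 genes, while Rrh, Rlbp1 and Rdh11 had overlapping groups.

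The stretch upstream of the transcription start is shown for the 4 pigment epithelium genes whose difference was 1 log2 unit or more downward, and for Rrh, whose groups overlapped, so that the genes can be compared by sequence. The 250 bases before the annotated start were read from RefSeq's promoter windows of GRCm38.p6, which held 8 of the 9 genes (12 windows). For Rpe65 and Rdh5 this start was not the outer end of the annotated gene (chr3:159599075 and chr10:128920037). Their windows therefore lay within the gene, in part for Rpe65 and wholly for Rdh5. The windows are chr3:159598931-159599180 on the plus strand for Rpe65, and on the minus strand chr14:37049015-37049264 for Rgr, chr3:82903975-82904224 for Lrat, chr10:128919298-128919547 for Rdh5 and chr3:129822506-129822755 for Rrh. Capitals mark the letters TAATCC on either strand, a core recognised by the homeodomain factors OTX2 and CRX, and the E-box CANNTG, which reads the same on both strands and is bound by basic helix-loop-helix factors such as MITF.
Rpe65: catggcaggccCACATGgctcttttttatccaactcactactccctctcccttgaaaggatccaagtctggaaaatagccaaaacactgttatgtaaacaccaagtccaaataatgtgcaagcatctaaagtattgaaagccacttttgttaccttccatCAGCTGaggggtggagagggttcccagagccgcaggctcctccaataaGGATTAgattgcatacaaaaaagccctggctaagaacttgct
Rgr: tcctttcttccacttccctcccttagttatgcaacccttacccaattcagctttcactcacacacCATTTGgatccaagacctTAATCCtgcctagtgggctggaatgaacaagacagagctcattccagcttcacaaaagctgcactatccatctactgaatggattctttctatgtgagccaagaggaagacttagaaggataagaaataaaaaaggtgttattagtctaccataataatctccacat
Lrat: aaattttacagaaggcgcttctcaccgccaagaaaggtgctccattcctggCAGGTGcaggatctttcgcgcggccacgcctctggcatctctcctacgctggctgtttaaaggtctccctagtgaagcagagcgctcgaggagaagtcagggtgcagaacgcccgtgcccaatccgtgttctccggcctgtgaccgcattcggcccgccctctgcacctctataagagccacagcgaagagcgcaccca
Rdh5: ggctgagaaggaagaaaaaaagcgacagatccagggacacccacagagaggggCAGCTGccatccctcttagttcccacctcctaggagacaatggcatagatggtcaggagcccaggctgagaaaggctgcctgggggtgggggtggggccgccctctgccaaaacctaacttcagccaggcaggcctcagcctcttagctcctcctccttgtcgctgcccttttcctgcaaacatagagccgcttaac
Rrh: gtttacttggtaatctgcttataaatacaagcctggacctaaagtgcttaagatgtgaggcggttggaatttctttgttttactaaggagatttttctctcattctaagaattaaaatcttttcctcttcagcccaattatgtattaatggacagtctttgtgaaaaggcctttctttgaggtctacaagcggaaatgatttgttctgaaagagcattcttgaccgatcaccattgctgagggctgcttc

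The TAATCC core occurred in Rpe65, with its first base 42 bases before the start, and in Rgr, 167 bases before it, and in 2 of the 12 windows of the visual cycle genes. Of all 32851 promoter windows of this length, 6.25% held it. An E-box stood in 10 of the 12 windows, against 66.2% of all windows, and Rrh held neither motif. The E-box form CATGTG, which is also counted among the E-boxes, occurred in Rpe65, 239 bases before the start, and in Rlbp1, 124 bases before it, against 12.3% of all windows. The Rlbp1 window also lay within its annotated gene. These matches describe letters in a window and say nothing of binding. The transcripts of OTX2 and MITF were followed on the same arrays, that of CRX was not, and they were named after their values were seen. Otx2 differed by -0.01 (95% interval -0.25 to 0.22) and Mitf by -0.17 (-0.58 to 0.24), with overlapping groups. These values are for whole retinal pools and not for the pigment epithelium alone.

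The Müller glia genes of the cycle differed less, with a median log2 difference of -0.21 over the 2 genes. Rlbp1 encodes the carrier that shields 11-cis retinoids in the cytosol. Its signal was 41106, 45463 and 35699.6 in diabetic replicates 1 to 3, against 44659 and 41294 in control replicates 1 and 2. The groups overlapped, with the highest and the lowest value both in diabetic pools, and the log2 difference was -0.08 (SE 0.10, 95% interval -0.32 to 0.15).

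Rdh10 encodes a retinol dehydrogenase that also supplies retinal for retinoic acid. Its signal was 6585, 6772 and 6611 in diabetic replicates 1 to 3, against 7831 and 9145 in control replicates 1 and 2. The diabetic pools spanned only 0.04 log2 units and all lay below both controls. The log2 difference was -0.34 (SE 0.10, 95% interval -0.57 to -0.12), and 2.02% of tested genes had a lower one.

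Rdh11 encodes a retinol dehydrogenase of photoreceptor inner segments and pigment epithelium. Its signal was 5007, 4437 and 5209 in diabetic replicates 1 to 3, against 4275 and 5323 in control replicates 1 and 2. The controls held both the lowest and the highest value, and the log2 difference was 0.03 (SE 0.13, 95% interval -0.26 to 0.32).

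**Figure D2:**
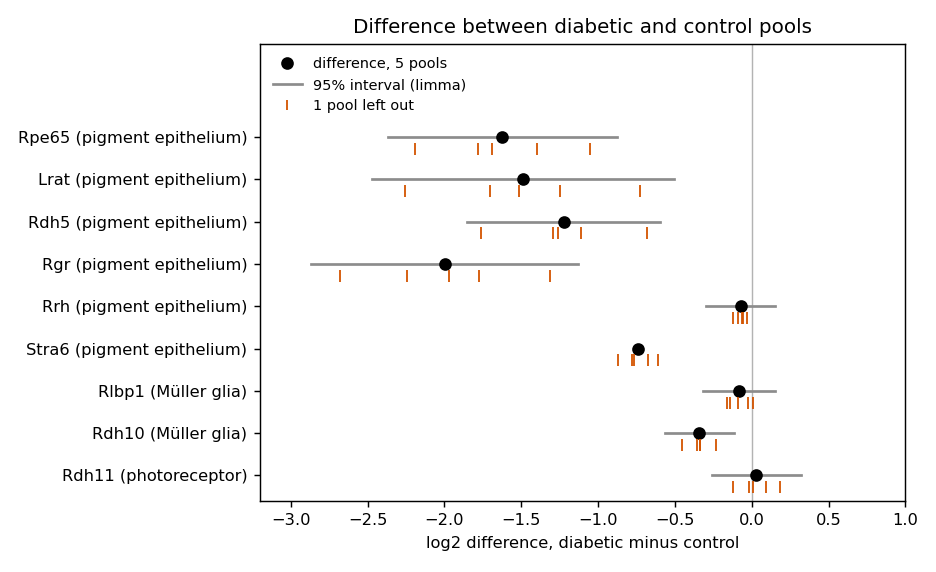
Log2 difference of each visual cycle gene, diabetic minus control, with all 5 pools (black points), the 95% interval of the limma fit (grey lines, none for Stra6, which was not tested) and the values with 1 pool left out (orange ticks). Rgr, Rpe65, Lrat and Rdh5 lay between -1.997 and -1.22, whereas Rrh, Rlbp1 and Rdh11 lay between -0.08 and 0.03.

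Control replicate 2 was the highest of the 5 arrays for 7 of the 9 genes, the untested Stra6 among them, where 17.1% of tested genes had their highest value in that array. In 6 of the 9 genes every diabetic pool lay below both controls, so their highest array had to be a control. As the genes were chosen knowing this contrast, nothing is read from the share. Without control replicate 2, the differences came to -1.32 for Rgr, -1.06 for Rpe65, -0.72 for Lrat, -0.68 for Rdh5 and -0.61 for Stra6. Rdh10 then differed by -0.23. With control replicate 1 left out instead, Rgr stood at -2.68, Lrat at -2.26, Rpe65 at -2.19 and Rdh5 at -1.76.

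The order of the diabetic pools was not shared among these genes. Rpe65 and Rdh5 were lowest in diabetic replicate 3, the pool of shorter diabetes, whereas Rgr, Lrat and Stra6 were lowest in diabetic replicate 1. Rgr and Rpe65 had their highest diabetic value in diabetic replicate 2, as did Lrat. Control replicate 1, the lower control for all 5, lay between the diabetic pools and control replicate 2.

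Of the 3 genes with a pair of probe sets, Lrat and Rdh10 had differences of one sign and Rdh11 did not. The dimmer Lrat probe set read 8.60, 8.07 and 8.35 in diabetic pools against 8.97 and 9.89 in controls on the log2 scale. Its groups did not overlap either, with a difference of -1.09, and it was lowest in diabetic replicate 2, where the brighter probe set had its highest diabetic value. The dimmer Rdh10 probe set read 12.71, 12.44 and 12.53 in diabetic pools against 12.60 and 13.06 in controls. Diabetic replicate 1 exceeded control replicate 1 there, so that the groups overlapped, and the difference of -0.27 came to -0.04 without control replicate 2. The dimmer Rdh11 probe set read 12.09, 11.65 and 12.35 in diabetic pools against 12.35 and 12.19 in controls. Its difference of -0.24, against 0.03 for the brighter one, came to -0.05 without diabetic replicate 2. Over all 12 probe sets, 11 were lower in diabetic pools on average.

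**Figure D3:**
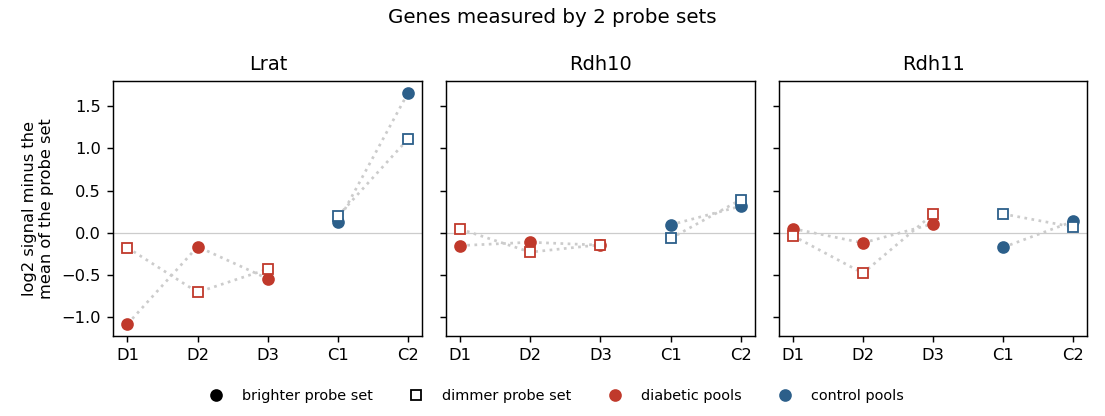
Log2 signal of each pool minus the mean of its probe set, for the 3 genes with a pair of probe sets (filled circles for the brighter, open squares for the dimmer; diabetic pools D1 to D3 in red, control pools C1 and C2 in blue). Both Lrat probe sets separated the groups, by -1.49 and -1.09, although they ordered the diabetic pools differently, and the Rdh11 probe sets differed by 0.03 and -0.24.

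Other genes that handle retinoids were given by lists from the known pathway. Of the 8 measured genes on the photoreceptor side, all above the filter, 2 were lower and 6 higher in diabetic pools, 0 passed the test, and the median difference was 0.02. Rbp3, the retinoid carrier of the space between photoreceptors and pigment epithelium, differed by 0.07 (95% interval -0.07 to 0.20). Abca4, the outer segment flippase for retinal adducts, differed by 0.02 (-0.13 to 0.17), and Rdh12, a photoreceptor retinal reductase, by 0.03 (-0.14 to 0.19), both named after their values were seen. These intervals were narrower than those of Rpe65, Lrat, Rdh5 and Rgr.

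Among the soluble carriers of retinoids, 2 of 6 measured genes were above the filter, both lower in diabetic pools and neither past the test. Ttr encodes transthyretin, which carries thyroid hormone and the retinol-binding protein and is made in the pigment epithelium. It was at 15.32, 15.98 and 15.34 in diabetic replicates 1 to 3, against 16.23 and 16.63 in control replicates 1 and 2, on the log2 scale. All diabetic pools lay below both controls, and the log2 difference was -0.89 (95% interval -1.34 to -0.43).

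Genes proposed for a pathway of isomerisation or esterification outside the pigment epithelium had a median difference of -0.05 over 3 tested genes, of which Degs1, a desaturase with retinol isomerase activity, was at -0.06 (-0.31 to 0.18). The genes of retinoic acid synthesis and response had a median of 0.05 over 7 tested of 17 measured, 2 lower and 5 higher, with the retinoid X receptor gene Rxrb at -0.17 (-0.52 to 0.19). The photopigment list had 3 tested genes, all higher, with a median of 0.09, among them the short-wavelength cone opsin Opn1sw at 0.07 (-0.13 to 0.27). Of the tested genes in these 3 lists, 0 passed, and all had overlapping groups.

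The genes nearest to Rpe65 were found by the root-mean-square distance over the 5 arrays between log2 profiles centred on their own means. Rdh5 was the nearest of all 10916 genes, at 0.25, and Rgr (0.38) and Lrat (0.39) ranked 5 and 6. Like Rpe65, these genes were chosen with their large differences known, which favours short distances over the same arrays, so nothing is read from their ranks. Rdh10 followed at rank 131 (0.73), Rlbp1 at 2033 (0.87), Rrh at 2502 (0.87) and Rdh11 at 4837 (0.91), against a median of 0.92 over the tested genes. The 8 nearest genes outside the visual cycle were Pon1 (0.32), Col8a2 (0.34), Slc26a7 (0.35), Car12 (0.40), Slc16a8 (0.41), Ttr (0.48), Tmem181a (0.49) and Jun (0.49). Pon1 encodes a paraoxonase, Col8a2 a collagen of basement membranes, Slc26a7 an anion transporter, Car12 a membrane carbonic anhydrase, Slc16a8 the lactate transporter of the pigment epithelium and Jun a transcription factor. Their log2 differences lay between -1.42 and -0.82, as the choice by likeness to Rpe65 over the same arrays favours, and 0 of them passed the test.

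**Figure D4:**
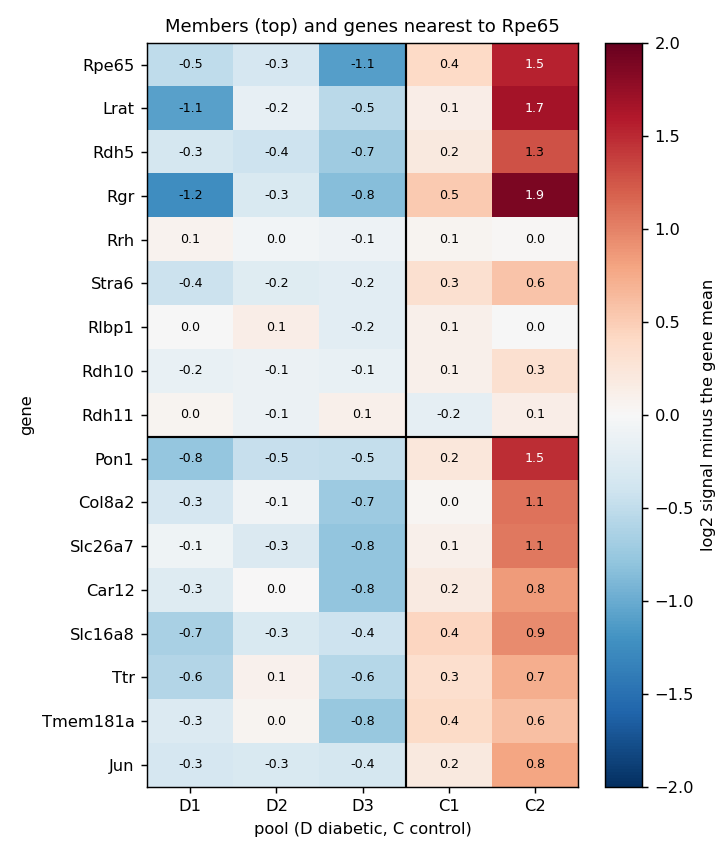
Log2 signal minus the mean of the gene in each pool (D1 to D3 diabetic, C1 and C2 control), for the 9 visual cycle genes (above the line) and the 8 genes nearest to Rpe65 (below it). Rpe65, Lrat, Rdh5, Rgr and the 8 nearest genes were highest in control replicate 2, and Rrh, Rlbp1 and Rdh11 stayed near 0 in every pool.

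Markers of the cell types that a retinal pool could hold were followed on the same arrays. Of 19 other genes of the pigment epithelium that were measured, 13 were above the filter, 10 lower and 3 higher in diabetic pools, with a median of -0.17 (-0.03 without control replicate 2). In 3 of the 13, Slc16a8, Clic6 and Ttr, every diabetic pool lay below both controls, as in 8.15% of all tested genes, and in 1, Trpm3, every diabetic pool lay above them, as in 9.99%. Clic6 and Trpm3 were named after their values were seen. Their summed signal, dim genes included, was 128366 to 153590 in diabetic pools, against 167360 and 205006 in controls. Without Ttr it was 87102 to 89062 in diabetic pools, against 90537 and 103445 in controls. The groups still did not overlap, but diabetic replicate 1 (89062) came close to control replicate 1 (90537). The brightest genes left in this sum were Otx2 and Krt18, both picked with their values known. They differed by -0.01 and -0.05, with overlapping groups. A sum weighs bright genes most and stands for whole retinal pools, so it is not read as an amount of pigment epithelium. Best1, Cldn19, Krt8, Slc6a13, Tspan10 and Bmp4 were below the filter.

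Melanosome genes, which pigment epithelium and choroidal melanocytes share, did not follow the groups. Their summed signal over 8 measured genes was 26884, 4676 and 17672 in diabetic replicates 1 to 3, against 7086 and 22339 in control replicates 1 and 2. Diabetic replicate 1, with the highest melanosome sum, had the lowest Rgr, Lrat and Stra6 of all 5 pools, while Rpe65 and Rdh5 were lowest in diabetic replicate 3. Between the controls, the melanosome sum and all 5 of these visual cycle genes were higher in control replicate 2. Of the 5 melanosome genes above the filter, 2 were lower and 3 higher in diabetic pools, with a median of 0.01 (0.88 without control replicate 2).

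Skeletal muscle signal did not follow the groups either, and summed over 13 genes it was 95231 in diabetic replicate 3, against 58939.7 in control replicate 2. The other pools had 6862 and 5964 (diabetic replicates 1 and 2) and 6202 (control replicate 1). Of the 7 muscle genes above the filter, 6 had a lower and 1 a higher mean in diabetic pools, with a median difference of -0.26 (1.41 without control replicate 2). Between the pair of high muscle signal, diabetic replicate 3 minus control replicate 2, Rgr differed by -2.73, Rpe65 by -2.65, Lrat by -2.20, Rdh5 by -1.98 and Stra6 by -0.79. In the remaining pools, with diabetic replicates 1 and 2 averaged and set against control replicate 1, Rgr differed by -1.29, Rpe65 by -0.83, Lrat by -0.75, Rdh5 by -0.57 and Stra6 by -0.65. A negative sign on both sides follows from groups that do not overlap. All 5 differences were larger within the pair of high muscle signal. That pair holds control replicate 2, the highest array for these 5 genes, and diabetic replicate 3, the pool of shorter diabetes. Its larger differences can therefore not be tied to muscle signal. Rrh gave -0.13 and -0.05 in the same comparisons and Rdh10 -0.46 and -0.23.

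Müller glia markers, with Rlbp1 among them, had a summed signal of 415131 to 430369 in diabetic pools, against 394780 and 432963 in controls. All 15 were above the filter, 4 lower and 11 higher in diabetic pools, with a median of 0.04. The part of melanosome, muscle or other pigment epithelium signal in the differences of the visual cycle genes was not tested.

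**Figure D5:**
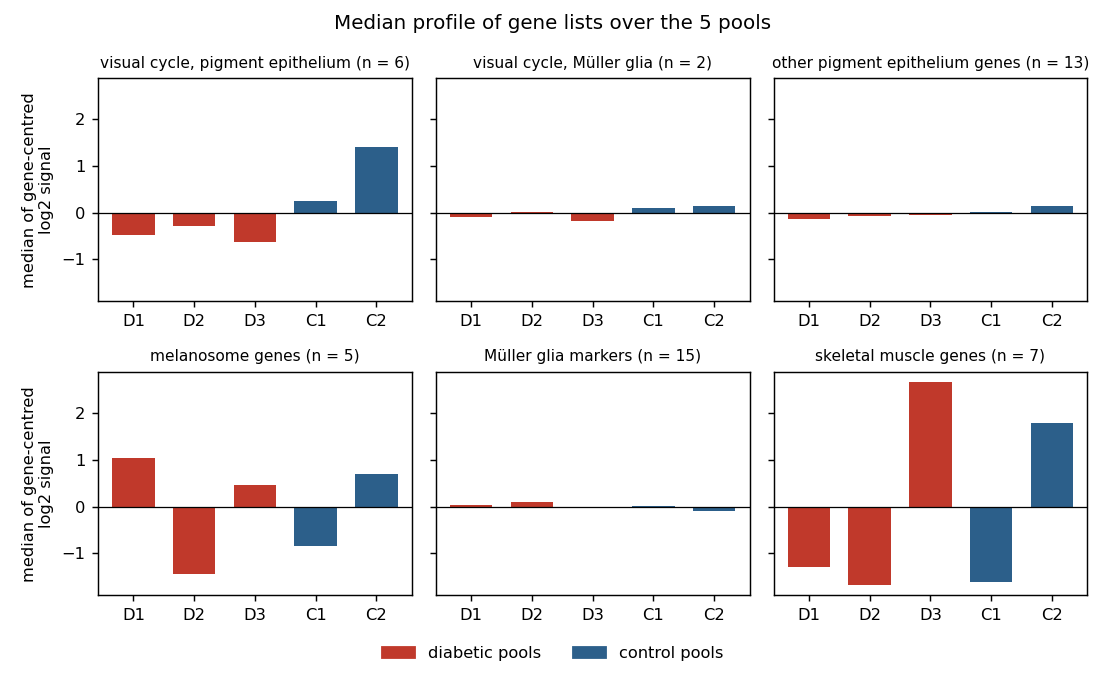
Median over genes of the log2 signal minus the mean of the gene, in each pool (diabetic D1 to D3 in red, control C1 and C2 in blue), for the visual cycle genes of each cell type and 4 marker lists (genes above the filter, and all 6 visual cycle genes of the pigment epithelium). The visual cycle genes of the pigment epithelium were at -0.47, -0.28 and -0.63 in diabetic pools and at 0.25 and 1.41 in controls, whereas melanosome and muscle genes were high and low in pools of both groups.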

How the data were processed

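The authors deposited linear signal intensities, with 1 value for each probe set and array. The 5 columns had equal trimmed means (2500.0 with the lowest and highest 2% left out). The summarization software is not given in the sources used here. Of 45101 probe sets, 34945 had 1 gene symbol, and 34741 of these were updated by Entrez ID through a RefSeq gene table of GRCm38.p6.

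The pseudocount of 120.6 is the 20th percentile of all values, which makes log2 differences of dim genes too small. The group difference was fitted by limma 3.58.1 in R 4.3.3 (lmFit, then eBayes with the trend option) and adjusted by Benjamini-Hochberg, and the steps were tested on simulated data. P-values set the group difference against the spread between pools, which eBayes moderates over all tested genes, and the number of arrays limits the precision. Plots were made with matplotlib 3.10.9.

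The genes, the lists and the tests were chosen with earlier results of these data known. Named outside the 9 genes were, in each retinoid list, the gene of highest mean and any tested gene differing by 0.5 log2 units or more, and the 8 genes nearest to Rpe65. Further names were picked once values were known (Abca4, Rdh12, Otx2, Mitf, Clic6, Trpm3, Krt18, Col1a2, Plvap and the genes that passed only under an alternative), or as marker genes below the filter. Alternatives covered the pseudocount, normalization, filter, choice of probe set, variance model, a replicate block, arrays left out, the muscle split and the placing of Rgr.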

Additional observations from a re-analysis of the deposited data

Results flagged for a closer look

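A control signal outside the gene comparison set diabetic replicate 2 apart from the control arrays. For beta-actin, its signal at the 3' end was 4.32 times that at the 5' end, against 2.52 and 2.71 times in the control arrays, which made it 1.60 times the higher control. The other diabetic arrays stood at 2.01 and 2.43. For Gapdh the same ratio was 0.901 in diabetic replicate 2, against 0.822 and 0.811 in the control arrays. With that pool left out, Rgr differed by -2.24, Rpe65 by -1.78, Lrat by -1.71, Rdh5 by -1.26 and Stra6 by -0.76, each larger than with it.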

How the results depend on the processing

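Rpe65, Lrat, Rdh5, Rgr, Rrh, Stra6 and Rdh10 kept a negative difference under all alternatives run on them. For all of these but Rrh the groups did not overlap at gene level, so leaving out, weighting or blocking arrays could not turn the sign. The median of the pigment epithelium genes lay between -1.98 and -0.70 with single arrays left out (the lower end without control replicate 1, the upper end without control replicate 2, where the lone control left is assumed to vary like the diabetic arrays), and was -0.70 with both high-muscle arrays left out. With Rgr counted as a Müller gene, the Müller median was -0.34 over 3 genes. Rdh11 turned negative with the mean of its probe sets (-0.11), its dimmer probe set (-0.24) and a replicate block (-0.0171), and lay between -0.12 and 0.18 with single arrays left out. Rlbp1 was at 0.00956 with the replicate block and between -0.16 and 0.00956 with single arrays left out. The replicate numbers pair diabetic and control replicates 1 and 2 only by name: over tested genes the deviations from group means correlated at 0.13 for the pair numbered 1 and at -0.14 for the pair numbered 2. With the block, which leaves diabetic replicate 3 out of the comparison, 2 genes passed in limma, Rgr (adjusted p = 0.0135) and Spc25. That fit rests on the pairs numbered 1 and 2 alone. Rgr was chosen with its difference known, so its adjusted p is no test of Rgr. With single arrays left out 0 to 1 genes passed (Prss22 without diabetic replicate 2 and Spc25 without diabetic replicate 3), and 2, Npl and Spc25, without both arrays of high muscle signal. All 4 genes were singled out by these results.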

Other observations

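The 14 measured rod genes, which mark the most abundant cells of the mouse retina, were all above the filter, with a summed signal of 968936 to 1056200 in diabetic pools, against 954030 and 1071030 in controls, and a median log2 difference of -0.00179. Connective tissue genes had 4 of 8 members above the filter, with a summed signal of 4935 to 8994 in diabetic pools, against 7216 and 15993 in controls, and a median of -0.46 (-0.13 without control replicate 2). Of the 4 tested connective tissue genes, 3 were lower and 1 higher in diabetic pools. In 2, every diabetic pool lay below both controls, as in 8.15% of all tested genes. Col1a2, a fibrillar collagen chain, differed by -1.13 (-0.55 without control replicate 2). Plvap, a protein of fenestrated endothelium such as that of the choroid, differed by -0.29. Both were named after their values were seen, and all other genes of this list had overlapping groups.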
